A study of Mus musculus with 12 samples.

Results

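The subject is the response to lipopolysaccharide (LPS) that bone marrow dendritic cells and macrophages have in common. C57B/6 mouse marrow from leg bones was grown for 6 days with GM-CSF, a myeloid growth factor, at 20 ng/ml, and both cell types came from such cultures. Of the 4 groups, GM-DC (labelled dendritic) and GM-MF (labelled macrophage) were each left unstimulated or given 10 ng/ml LPS for 4 hours. Each group held 3 arrays, 12 in all, so the LPS arrays of each cell type have untreated controls of the same type. No genotype other than the strain, and no age, sort gate or pooling of mice, is stated in the labels.

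For each gene the LPS change was the mean with LPS minus the mean without it, on the log2 scale, and the LPS main effect was the average of the GM-DC and the GM-MF change. The main effect was called where its adjusted p was under 0.05 (limma on all 12 arrays, Benjamini-Hochberg over 19938 genes). A gene counted as shared when this call was met and it changed at least 2-fold (1 on the log2 scale) in the same direction in each cell type, by sizes that differed by at most 1. Of 19938 genes 88 were shared (0.441%), 58 that rose (0.291%) and 30 that fell (0.150%). The changes themselves chose these genes, so their sizes are a description. Errors after ± are standard errors of the limma fit, and n is 3 arrays per group throughout.

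LPS is a component of the outer membrane of Gram-negative bacteria that binds Toll-like receptor 4 with its partners Cd14 and Ly96. Signals through the adaptor Myd88 release the transcription factor NF-kB and start MAP kinases, which turn on cytokines, chemokines and their own inhibitors. Signals through the adaptor Ticam1 lead to interferon beta, which induces antiviral genes in the same and neighbouring cells. Dendritic cells answer with costimulatory molecules that arm T cells, macrophages with inflammatory mediators and antimicrobial enzymes.

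The arrays had medians of 4.41 to 4.54 and the correlation between replicate arrays was 0.993 to 0.996. The marker lists were chosen with earlier results of these data known, so their levels describe the labelled cell types and do not test them. Of the dendritic cell markers 14 of 14 measured had higher levels in GM-DC and 14 of 14 macrophage markers had higher levels in GM-MF (limma, mean of the differences with and without LPS, where 23.6% and 19.1% of all genes were called in these directions). Among them were Flt3, a growth factor receptor of dendritic cells, 21.3-fold higher in GM-DC, and Csf1r, which binds M-CSF and keeps macrophages alive, 31.7-fold higher in GM-MF. Nothing in the labels ties replicates to separate mice or cultures, so the p-values reflect array-to-array spread that may be technical. In RNA of many cells, fewer cells of a type and less RNA per cell cannot be told apart.

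The LPS main effect passed for 3979 genes (20.0%), 1643 that rose (8.24%) and 2336 that fell (11.7%). The balance of rises and falls turned with the scaling: 41.3% of called genes rose with the values as deposited and 52.6% after cyclic loess. Larger changes were mostly rises. Of 381 genes with a called main effect of at least 2-fold (1.91%), 294 rose (1.47%) and 87 fell (0.436%). Of these 381 genes 88 were shared, which is 23.1% of them and 0.441% of all genes. In 35 more both cell types changed at least 2-fold the same way, but by sizes more than 1 apart, larger in GM-MF for 22 and in GM-DC for 13. In 141 genes GM-MF alone and in 117 genes GM-DC alone changed by at least 2-fold. Over all 19938 genes the GM-DC and GM-MF changes correlated at 0.395, a description across genes, which are not independent replicates.

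**Figure D1:**
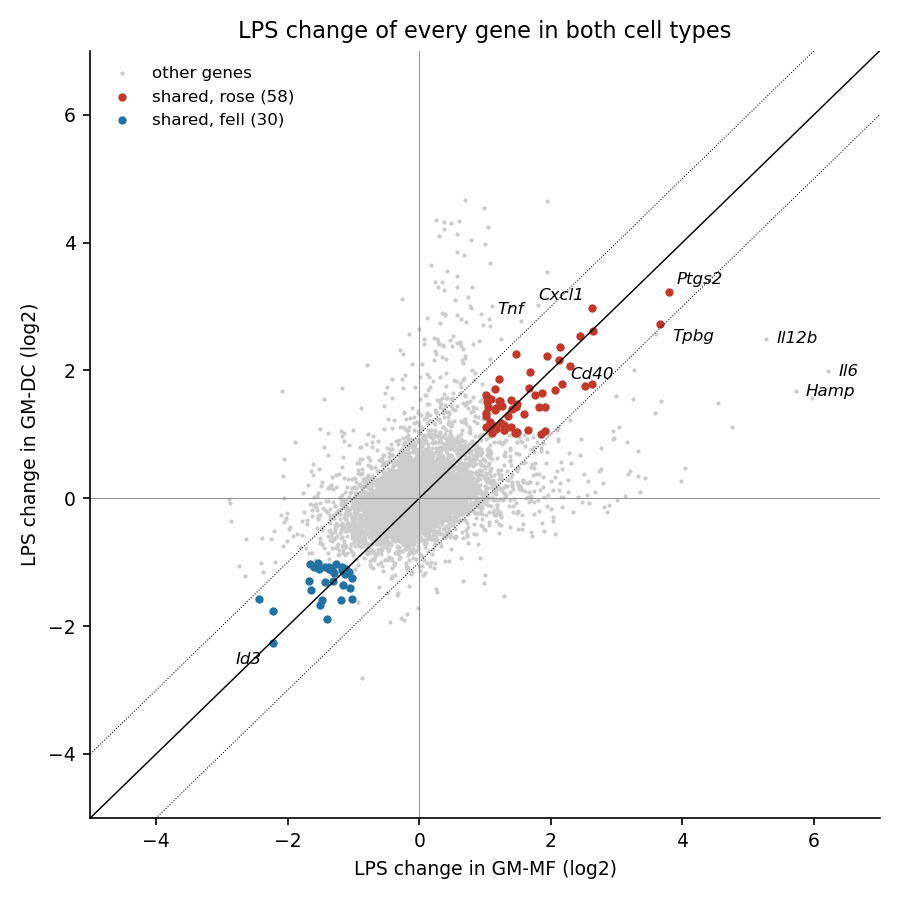
LPS change of each of 19938 genes in GM-MF (horizontal axis, log2) against GM-DC (vertical axis, log2), with the line of equal change and dotted lines 1 apart from it. The 58 shared genes that rose (red) and the 30 that fell (blue) lie between the dotted lines, while Il6, Il12b and Hamp lie to the right of them and Tnf above.

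All 88 shared genes were also called in each cell type taken alone, and in all 88 the 3 arrays with LPS lay wholly on one side of the 3 arrays without it in both cell types. Such separation in the same direction was found for 2054 of all genes (10.3%). The rule for shared genes asks for a 2-fold change in each cell type, which favours both the calls and the separation. How many of all genes were called in both cell types was not counted, so nothing is read from these calls. Main effects ran from 1.06 to 3.51 among the rises and from -2.24 to -1.11 among the falls. Shared genes of at least 4-fold main effect were 11 rises and 1 fall. The median change of the rises was 1.44 in GM-DC and 1.43 in GM-MF, and that of the falls -1.21 and -1.37, where the medians over all genes were -0.008 and -0.018.

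Arrays of 1 group were not level over the shared genes. GM-DC with LPS replicate 3 had a median deviation of -0.33 from the other 2 arrays of its group over the 58 rises, and replicate 2 had 0.31, where the medians over all genes were -0.022 and 0.07. Untreated GM-DC replicate 3 had a median deviation of -0.41 over the 30 falls, where all genes had 0.0015. Without GM-DC with LPS replicate 3 there were 105 shared genes, of which 83 were among the 88, and without replicate 2 there were 76, of which 74 were. Without untreated GM-DC replicate 3 there were 95, of which 76 were among the 88. In all 12 fits that leave out 1 array, 50 of 88 genes were shared each time, 33 rises and 17 falls.

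The shared gene with the largest main effect was Ptgs2, which encodes cyclooxygenase-2, the inducible enzyme of prostaglandin synthesis. In GM-DC, Ptgs2 read 5.40, 5.48 and 6.87 without LPS and 8.89, 9.15 and 9.38 with it. GM-MF had 8.23, 8.97 and 8.30 without LPS and 12.33, 12.08 and 12.46 with it. Every LPS array was above every untreated array of its cell type, and untreated GM-DC replicate 3 was the highest of its group. The main effect was 3.51 ± 0.22, which is 11.4-fold (limma adjusted p = 3.81e-08). The change in GM-DC minus that in GM-MF had a 95% interval of -1.5 to 0.37, which reaches past a 2-fold difference in size. Of the 22 measured nitric oxide, prostaglandin, itaconate and redox enzymes 9 rose, 6 fell and 7 did not pass, and Ptgs2 was the only shared member. Beside this and the list counts that follow, 8.24% of all genes rose and 11.7% fell.

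The next was Tpbg, the cell surface trophoblast glycoprotein 5T4. In GM-DC, Tpbg read 4.16, 4.15 and 4.63 without LPS and 7.50, 6.91 and 6.68 with it. For GM-MF, Tpbg was 4.83, 4.22 and 4.18 in untreated and 8.09, 8.18 and 7.92 in LPS arrays. Both cell types started near the array medians, and the macrophage arrays ended higher. The changes were 2.72 ± 0.21 in GM-DC and 3.66 ± 0.21 in GM-MF, and the difference of 0.94 made Tpbg the shared gene nearest to the limit. Next inside the limit were Stat5a and Slc43a2, both with differences of 0.86 in size. Just outside it were Serpinb9, an inhibitor of granzyme B (1.11 ± 0.18 in GM-DC and 2.12 ± 0.18 in GM-MF), the TNF family ligand Tnfsf15 (2.56 ± 0.19 in GM-DC and 3.59 ± 0.19 in GM-MF) and the transcription factor Batf (1.23 ± 0.23 in GM-DC and 2.28 ± 0.23 in GM-MF).

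Il1b and Il1a were both shared. They encode interleukin-1 beta and alpha, which share a receptor and drive fever and neutrophil entry. In GM-DC, Il1b read 4.82, 4.92 and 5.26 without LPS and 6.62, 7.20 and 7.40 with it. The untreated GM-MF arrays read 9.51, 9.74 and 9.46, those with LPS 11.89, 11.70 and 11.99. The groups did not overlap, and GM-MF without LPS was already above GM-DC with it. In GM-DC, Il1a read 3.71, 4.41 and 4.01 without LPS and 5.91, 6.18 and 6.72 with it. In GM-MF the values were 9.61, 9.63 and 9.61 without LPS and 11.57, 11.32 and 11.79 with it. The pattern was that of Il1b, with GM-DC starting at or below the lowest array median. The changes were 2.07 ± 0.18 in GM-DC and 2.29 ± 0.18 in GM-MF for Il1b and 2.23 ± 0.20 in GM-DC and 1.94 ± 0.20 in GM-MF for Il1a. Il1rap, the chain that the interleukin-1 receptor needs to signal, rose as well (1.02 ± 0.17 in GM-DC and 1.47 ± 0.17 in GM-MF).

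Interleukin-15, which sustains natural killer cells and memory T cells, rose together with its presenting receptor. In GM-DC, Il15 read 8.73, 8.77 and 8.59 without LPS and 10.03, 10.27 and 10.07 with it. GM-MF had 8.99, 9.25 and 9.04 without LPS and 10.89, 10.80 and 11.02 with it. No LPS array overlapped an untreated one, and GM-MF stood somewhat above GM-DC. Il15ra, the chain that holds interleukin-15 on the cell surface, rose by 1.00 ± 0.12 in GM-DC and by 1.85 ± 0.12 in GM-MF. These changes differed between the cell types by the test (limma interaction adjusted p = 0.00527). Inhba, which encodes the activin A subunit, rose by 1.52 ± 0.15 in GM-DC and 1.21 ± 0.15 in GM-MF. In the cytokine list 20 of 24 measured members rose, 2 fell and 2 did not pass, with a median main effect of 1.5 where all genes had -0.011. Only Il1a, Il1b, Il15 and Inhba of the 24 were shared, and 14 of the 24 had changes that differed between the cell types (7.59% of all genes did).

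Shared chemokines were Cxcl1, which draws neutrophils, and Ccl4, which draws monocytes. In GM-DC, Cxcl1 read 5.76, 5.35 and 6.64 without LPS and 8.75, 9.17 and 8.75 with it. For GM-MF, Cxcl1 was 7.58, 7.97 and 7.64 in untreated and 10.32, 10.11 and 10.64 in LPS arrays. The ranges without and with LPS were apart in both cell types, with untreated GM-DC replicate 3 the highest of its group. In GM-DC, Ccl4 read 6.28, 6.58 and 5.57 without LPS and 8.68, 9.02 and 8.36 with it. The untreated GM-MF arrays read 9.93, 10.54 and 10.32, those with LPS 12.65, 12.67 and 12.82. Ccl4 rose almost equally, by 2.54 ± 0.23 in GM-DC and 2.45 ± 0.23 in GM-MF, from starting levels far apart. The main effects were 6.96-fold for Cxcl1 and 5.64-fold for Ccl4. Of 21 measured chemokines 15 rose, none fell and 6 did not pass, and 13 differed in their change between the cell types.

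Among regulators of the response the largest shared change was that of Nfkbiz, which encodes I-kappa-B zeta, a nuclear cofactor of NF-kB. In GM-DC, Nfkbiz read 6.10, 6.03 and 6.96 without LPS and 8.66, 8.90 and 8.61 with it. In GM-MF the values were 7.11, 7.43 and 7.15 without LPS and 9.31, 9.29 and 9.52 with it. The 6 arrays with LPS lay within 1 of each other on the log2 scale across both cell types. The changes were 2.36 ± 0.20 in GM-DC and 2.14 ± 0.20 in GM-MF, with an interval of the difference of -0.38 to 0.82. Stat5a, a transcription factor that GM-CSF signals activate, rose by 1.05 ± 0.16 in GM-DC and 1.91 ± 0.16 in GM-MF (limma interaction adjusted p = 0.0268). Of 23 measured NF-kB subunits and feedback genes 15 rose, none fell and 8 did not pass, and Nfkbiz was the only one shared. Nfkbia, the inhibitor that NF-kB induces against itself, rose by nearly equal but smaller steps (0.90 ± 0.11 in GM-DC and 0.80 ± 0.11 in GM-MF). Irf1, a transcription factor of interferon genes, rose by 0.83 ± 0.14 in GM-DC and 1.08 ± 0.14 in GM-MF, short of 2-fold in GM-DC. Zc3h12a, a ribonuclease that degrades cytokine mRNA, rose by 1.00 ± 0.15 in GM-DC and 1.60 ± 0.15 in GM-MF and lay just under the limit in GM-DC. In the list of SOCS, STAT and IRF factors 13 of 21 measured members rose, 1 fell and 7 did not pass.

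**Figure D2:**
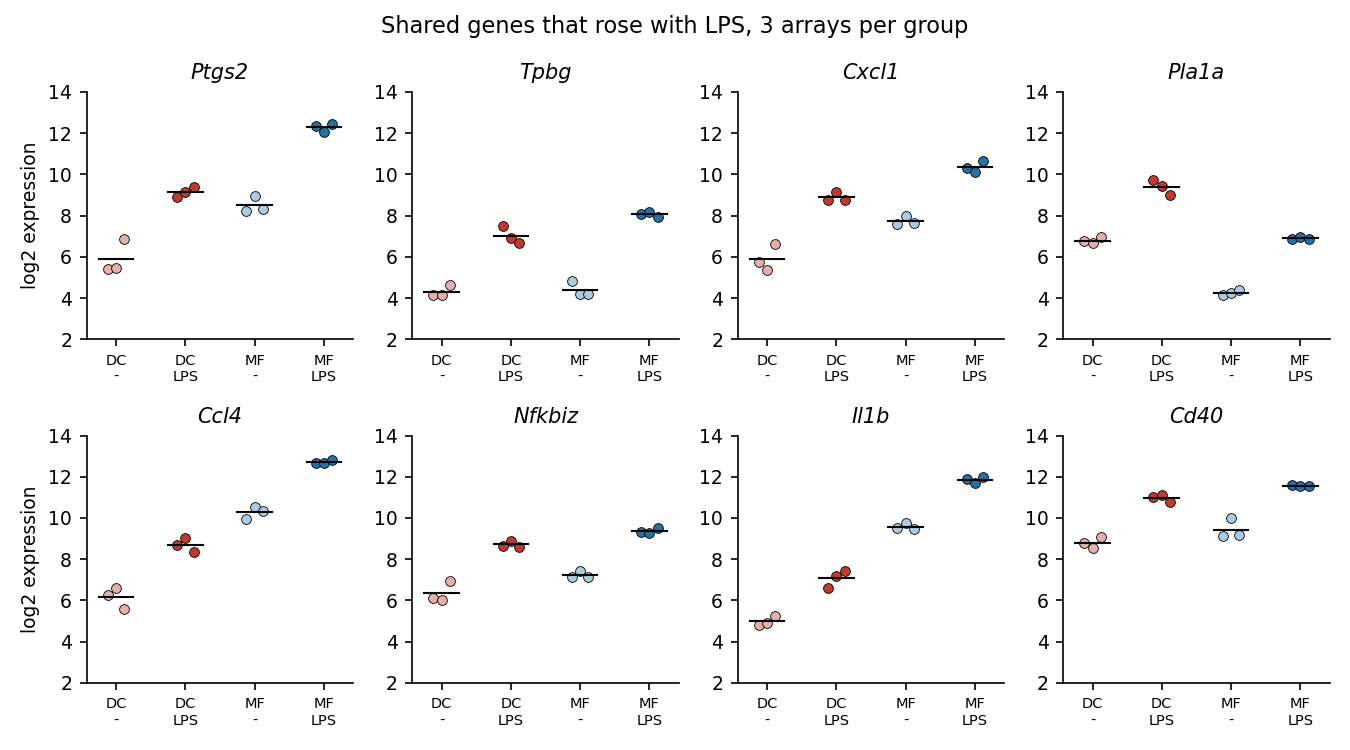
Log2 expression (vertical axis, as deposited) of 8 shared genes that rose, in GM-DC and GM-MF without (-) and with LPS. Points are single arrays, 3 per group, and bars are group means. The step from untreated to LPS differs between the cell types by at most 1, and most for Tpbg (2.72 in GM-DC and 3.66 in GM-MF). The levels of Il1b and Ccl4 are far lower in GM-DC and that of Pla1a is higher.

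Of the genes for contact with T cells, Cd40, Cd86 and Slamf1 were shared. Cd40 encodes the receptor through which helper T cells license antigen-presenting cells. In GM-DC, Cd40 read 8.80, 8.55 and 9.07 without LPS and 11.00, 11.13 and 10.76 with it. GM-MF had 9.14, 9.99 and 9.16 without LPS and 11.58, 11.55 and 11.54 with it. The ranges did not overlap, and the highest untreated array was GM-MF replicate 2. The changes were 2.16 ± 0.20 in GM-DC and 2.13 ± 0.20 in GM-MF, and the interval of their difference was -0.56 to 0.62. Cd86, a ligand of the costimulatory receptor Cd28, rose by 1.16 ± 0.11 in GM-DC and 1.09 ± 0.11 in GM-MF. Slamf1, a receptor of the SLAM family, rose by 1.62 ± 0.17 in GM-DC and 1.76 ± 0.17 in GM-MF. Of 23 measured costimulation and TNF superfamily genes 15 rose, none fell and 8 did not pass, and 10 differed in their change between the cell types.

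The shared rises included genes known to be induced by interferons. Gbp5 and Gbp4 encode guanylate-binding proteins, which attack the membranes of bacteria inside cells. In GM-DC, Gbp5 read 7.54, 7.37 and 7.38 without LPS and 9.35, 9.65 and 9.24 with it. For GM-MF, Gbp5 was 9.34, 9.53 and 9.28 in untreated and 11.15, 10.97 and 11.08 in LPS arrays. The arrays of each group were close together, and GM-DC with LPS reached about the level of untreated GM-MF. The changes were 1.98 ± 0.12 in GM-DC and 1.68 ± 0.12 in GM-MF for Gbp5 and 1.78 ± 0.37 in GM-DC and 2.17 ± 0.37 in GM-MF for Gbp4. For Gbp4, replicate 3 of GM-DC was the lowest of its group both without LPS (4.02) and with it (6.52). Isg20, an antiviral exonuclease, rose by 1.02 ± 0.15 in GM-DC and 1.45 ± 0.15 in GM-MF, and Trim21, a ubiquitin ligase that binds antibody inside cells, by 1.5 ± 0.16 in GM-DC and 1.03 ± 0.16 in GM-MF. Ifi214, of the p200 family of interferon-inducible genes, rose by 1.43 ± 0.23 in GM-DC and 1.47 ± 0.23 in GM-MF, and Apol7c, of the apolipoprotein L family, by 1.58 ± 0.25 in GM-DC and 1.03 ± 0.25 in GM-MF. Although 28 of 28 measured interferon-stimulated genes rose, 23 of them differed in their change between the cell types and only Isg20 and Gbp5 were shared. Their median change was 2.89 for GM-DC but 0.71 for GM-MF.

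Among the other shared rises were genes of lipid enzymes and receptors. Pla1a encodes a secreted phospholipase that acts on phosphatidylserine. In GM-DC, Pla1a read 6.75, 6.65 and 6.97 without LPS and 9.72, 9.46 and 9.02 with it. The untreated GM-MF arrays read 4.13, 4.24 and 4.41, those with LPS 6.87, 6.94 and 6.89. GM-MF with LPS ended at the level where GM-DC started. The changes were 2.61 ± 0.15 in GM-DC and 2.64 ± 0.15 in GM-MF. Pla1a and Cd40 had the most equal changes among rises of at least 4-fold. Calcrl, the receptor subunit for adrenomedullin, rose by 2.25 ± 0.14 in GM-DC and 1.47 ± 0.14 in GM-MF, and Adm, which encodes adrenomedullin, by 1.03 ± 0.22 in GM-DC and 1.48 ± 0.22 in GM-MF. The Calcrl changes differed by the test (limma interaction adjusted p = 0.0252). Procr, the receptor of protein C, rose by 1.71 ± 0.13 in GM-DC and 1.15 ± 0.13 in GM-MF, S1pr3, a receptor of sphingosine 1-phosphate, by 1.54 ± 0.19 in GM-DC and 1.39 ± 0.19 in GM-MF, and the integrin subunit Itgav by 1.62 ± 0.17 in GM-DC and 1.02 ± 0.17 in GM-MF. Slc7a2, which carries arginine into cells, rose by 1.13 ± 0.14 in GM-DC and 1.16 ± 0.14 in GM-MF. Timp1, an inhibitor of matrix metalloproteinases, rose by 1.79 ± 0.36 in GM-DC and 2.62 ± 0.36 in GM-MF, with replicate 3 the lowest array in all 4 groups.

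Other shared rises were regulators of growth, transcription and the cytoskeleton. Ccnd2 encodes cyclin D2, which starts the cell cycle. In GM-DC, Ccnd2 read 9.72, 9.61 and 9.99 without LPS and 11.52, 11.67 and 11.39 with it. In GM-MF the values were 8.03, 8.70 and 7.97 without LPS and 10.82, 10.93 and 10.52 with it. Ccnd2 rose by 1.75 ± 0.18 in GM-DC and 2.52 ± 0.18 in GM-MF, while of 29 measured cell cycle genes 4 rose, 12 fell and 13 did not pass. Tle3, a corepressor of transcription, rose by 1.18 ± 0.13 in GM-DC and 1.24 ± 0.13 in GM-MF, the zinc finger factor Plagl2 by 1.28 ± 0.12 in GM-DC and 1.01 ± 0.12 in GM-MF and the homeobox factor Lhx2 by 1.06 ± 0.19 in GM-DC and 1.65 ± 0.19 in GM-MF. Rnd3, which loosens actin fibres, rose by 1.42 ± 0.15 in GM-DC and 1.04 ± 0.15 in GM-MF, and Arhgap26 by 1.29 ± 0.13 in GM-DC and 1.35 ± 0.13 in GM-MF. Metabolic genes among the rises included Ppa1, an inorganic pyrophosphatase (1.06 ± 0.11 in GM-DC and 1.29 ± 0.11 in GM-MF), and Car13, a carbonic anhydrase (1.40 ± 0.11 in GM-DC and 1.41 ± 0.11 in GM-MF). St3gal5, which makes the ganglioside GM3, also rose (1.45 ± 0.17 in GM-DC and 1.26 ± 0.17 in GM-MF).

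Of the remaining rises, several are membrane proteins: the organic anion transporter Slco3a1 (1.66 ± 0.09 for the main effect), the orphan receptor Gpr85 (1.45 ± 0.13), the lipoprotein receptor Apobr (1.38 ± 0.11), Ms4a4c (1.70 ± 0.11) and Pdzk1ip1 (1.88 ± 0.17). Others act in signalling or on chromatin: the B cell linker Blnk (1.18 ± 0.20), the Ras exchange factor Rasgef1b (1.07 ± 0.12), the Rab exchange factor Dennd3 (1.09 ± 0.09), Pmepa1 of TGF-beta signalling (1.18 ± 0.13), the stress factor Nupr1 (1.53 ± 0.14), and the PHD finger genes Phf6 (1.48 ± 0.09) and Phf11c (1.26 ± 0.10). Enzymes and their helpers were Dse, which modifies dermatan sulfate (1.22 ± 0.16), Ppm1k, a mitochondrial phosphatase (1.12 ± 0.11), Sco1, of cytochrome oxidase assembly (1.14 ± 0.12), and Lacc1 (1.06 ± 0.09). Carhsp1 (1.32 ± 0.10), which binds RNA, Serpinb1b (1.29 ± 0.12), a protease inhibitor, Abtb2 (1.27 ± 0.08) and the gene model Gm12185 (1.75 ± 0.13) completed the rises. Each of these had LPS arrays wholly above the untreated ones in both cell types.

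The largest shared fall was that of Id3, an inhibitor of DNA-binding helix-loop-helix factors. In GM-DC, Id3 read 7.44, 7.17 and 6.78 without LPS and 5.01, 4.51 and 5.09 with it. GM-MF had 7.90, 7.57 and 8.04 without LPS and 5.44, 5.74 and 5.67 with it. The arrays with LPS were all below those without, and the falls were nearly equal. The main effect was -2.24 ± 0.13 (limma adjusted p = 2.14e-08), and the 95% interval of the difference between the cell types was -0.60 to 0.52. Slc43a2, a transporter of large neutral amino acids, changed by -1.57 ± 0.16 in GM-DC and -2.43 ± 0.16 in GM-MF, a difference that passed the test (limma interaction adjusted p = 0.0315).

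Some receptors that sense lipids and nucleotides were among the falls. Lpar6 encodes a receptor of lysophosphatidic acid. In GM-DC, Lpar6 read 7.0, 6.90 and 7.11 without LPS and 5.19, 5.09 and 5.45 with it. For GM-MF, Lpar6 was 8.45, 8.65 and 8.59 in untreated and 6.30, 6.39 and 6.33 in LPS arrays. The groups were tight and did not overlap. The changes were -1.76 ± 0.11 in GM-DC and -2.22 ± 0.11 in GM-MF. P2ry6, a receptor of extracellular UDP, changed by -1.35 ± 0.11 in GM-DC and -1.16 ± 0.11 in GM-MF. The orphan receptors Gpr160 (-1.03 ± 0.20 in GM-DC and -1.66 ± 0.20 in GM-MF) and Gpr146 (-1.16 ± 0.11 in GM-DC and -1.07 ± 0.11 in GM-MF) fell too. In the list of inflammasome and purinergic genes 5 of 17 measured members rose, 4 fell and 8 did not pass, and P2ry6 alone was shared.

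Some immune receptor genes were among the shared falls. Cd300a, an inhibitory receptor of myeloid cells, changed by -1.31 ± 0.15 in GM-DC and -1.43 ± 0.15 in GM-MF, and was the only shared gene of 28 measured phagocytic, scavenger, Fc and lectin receptors, of which 8 rose, 4 fell and 16 did not pass. Sh2d1b1, the SLAM receptor adaptor EAT-2, changed by -1.67 ± 0.16 in GM-DC and -1.51 ± 0.16 in GM-MF, and Cd244a, a SLAM family receptor, by -1.18 ± 0.18 in GM-DC and -1.13 ± 0.18 in GM-MF. These falls stood beside the rise of the family's Slamf1. Nfam1, a receptor that signals through an immunoreceptor activation motif, changed by -1.08 ± 0.18 in GM-DC and -1.60 ± 0.18 in GM-MF, and Adgre5, the adhesion receptor CD97, by -1.08 ± 0.17 in GM-DC and -1.37 ± 0.17 in GM-MF. Myo1f, a myosin of leukocyte migration, read 10.30, 10.32 and 10.35 without and 8.75, 8.56 and 8.67 with LPS in GM-MF. In GM-DC its values were 6.67, 6.66 and 6.37 without and 5.23, 5.58 and 5.03 with LPS, which made the changes -1.29 ± 0.13 in GM-DC and -1.67 ± 0.13 in GM-MF.

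Some genes for enzymes of lipids and glycans were among the falls. Scd2 and Fads1, which put double bonds into fatty acids, changed by -1.10 ± 0.17 in GM-DC and -1.53 ± 0.17 in GM-MF and by -1.29 ± 0.15 in GM-DC and -1.31 ± 0.15 in GM-MF. Nceh1, which splits stored cholesterol esters, changed by -1.60 ± 0.24 in GM-DC and -1.19 ± 0.24 in GM-MF, and Galc, the lysosomal enzyme that degrades galactosylceramide, by -1.11 ± 0.13 in GM-DC and -1.38 ± 0.13 in GM-MF. Pgap1, which remodels glycosylphosphatidylinositol anchors, changed by -1.44 ± 0.20 in GM-DC and -1.64 ± 0.20 in GM-MF, and St6gal1, a sialyltransferase, by -1.10 ± 0.25 in GM-DC and -1.12 ± 0.25 in GM-MF. None of the 20 measured genes of cholesterol synthesis, uptake and efflux was shared, though 14 fell, 1 rose and 5 did not pass. Their median change was -0.11 in GM-DC and -0.66 in GM-MF. Of 25 lysosomal genes 10 fell, 2 rose and 13 did not pass, and Lipa, lysosomal acid lipase, came close to the limit (-0.99 ± 0.12 in GM-DC and -0.74 ± 0.12 in GM-MF). Other falls were Tmem51 (-1.89 ± 0.16 in GM-DC and -1.40 ± 0.16 in GM-MF) and the zinc finger protein Zfp385a (-1.60 ± 0.19 in GM-DC and -1.48 ± 0.19 in GM-MF).

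The remaining falls were smaller in main effect than that of Zfp385a. They were Spint1, a protease inhibitor of the cell surface (-1.28 ± 0.09 for the main effect), Snx30, a sorting nexin (-1.26 ± 0.14), Arrdc3, an arrestin-related protein (-1.23 ± 0.13), the channel genes Calhm2 (-1.23 ± 0.15) and Pacc1 (-1.15 ± 0.11), Ypel2 (-1.30 ± 0.14), Sec14l1 (-1.15 ± 0.09) and Foxred2 (-1.14 ± 0.11). The gene models Gm11545 (-1.23 ± 0.10) and C130050O18Rik (-1.13 ± 0.12) completed the falls.

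**Figure D3:**
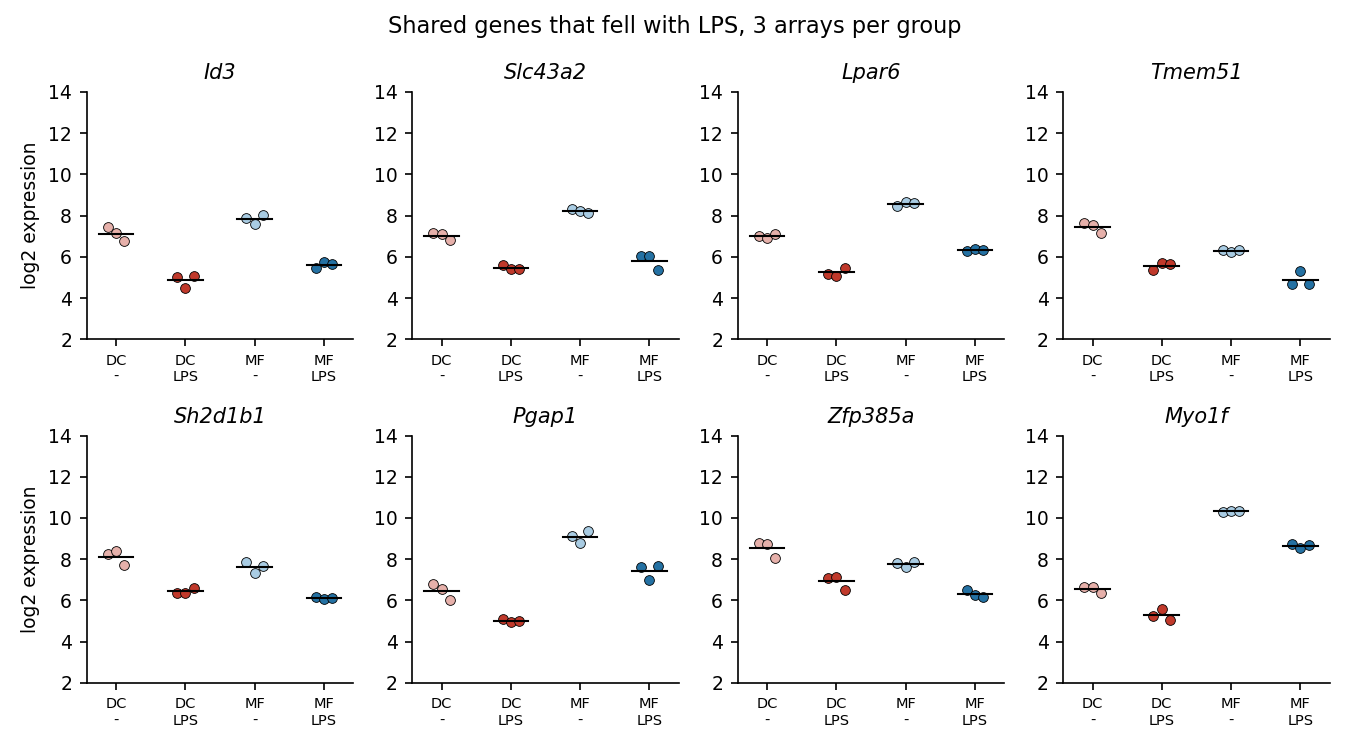
Log2 expression (vertical axis, as deposited) of 8 shared genes that fell, in GM-DC and GM-MF without (-) and with LPS. Points are single arrays, 3 per group, and bars are group means. All LPS points lie below the untreated points of the same cell type, and Pgap1 and Myo1f have lower levels in GM-DC.

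The sizes were compared by the interval of their difference as well. For 67 of 88 shared genes the 95% interval of the GM-DC change minus the GM-MF change lay within -1 to 1, so that a gap of over 2-fold lay outside it. For the other 21 the interval reached past 1 of these limits. The median absolute difference was 0.27. Changes were larger in GM-MF for 50 genes and in GM-DC for 38. The test of the difference passed for 4 of 88: Il15ra, Stat5a and Slc43a2, larger in GM-MF, and Calcrl, larger in GM-DC. The interaction passed for 7.59% of all genes, but the rule used the same difference, so nothing is read from the comparison. The count moved with the fit. With the replicate number as a block within each cell type it passed for 10 of 88 (9.73% of all genes), namely the same 4 and Ccnd2, Itgav, Lpar6, Nupr1, Spint1 and Timp1 (limma interaction adjusted p from 0.0234 to 0.044 for these 6). Of the genes just outside the limit, Batf passed with that block (adjusted p = 0.00385) and Tnfsf15 did not (adjusted p = 0.0542). Restricted to genes with a mean above that of the median gene the test passed for 7 of 87, and for 17.7% of all genes tested there. It passed for 9 of 88 without GM-DC LPS replicate 3 (8.77% of all genes). Only 2 passed without untreated GM-DC replicate 1, GM-MF LPS replicate 2, or untreated GM-MF replicate 1 or 3 (6.04% to 6.74% of all genes).

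Equal steps did not mean equal levels. The difference between cell types averaged over both treatments is a contrast that the rule did not use, though it shares the residual spread of the fit that called the genes. It passed for 77 of 88 shared genes, against 42.7% of all genes, 54 higher in GM-MF (19.1% of all genes) and 23 higher in GM-DC (23.6%). Differences of at least 2-fold were found for 38 genes toward GM-MF (6.67% of all genes) and 8 toward GM-DC (5.77%), 46 in all (12.4%). At least 4-fold differences were found for 24 of 88, against 4.60% of all genes. The rises leaned to GM-MF: 40 of 58 were higher in GM-MF, 12 in GM-DC and 6 did not pass, with a median of -1.11 (GM-DC minus GM-MF) where all genes had -0.01. Of the 30 falls 14 were higher in GM-MF, 11 in GM-DC and 5 did not pass, with a median of -0.10. Among the 293 genes of at least 2-fold main effect that were not shared, 268 passed the cell type test (91.5%). Passing it was thus not particular to the shared genes. The rises that were not shared leaned the same way. Of these 236 genes 177 were higher in GM-MF, 42 in GM-DC and the others did not pass, with a median of -1.97. Of the 57 falls that were not shared 24 were higher in GM-MF and 25 in GM-DC, with a median of -0.04. Higher in GM-MF were also 28 of 28 interferon-stimulated genes, 17 of 24 cytokines and 15 of 21 chemokines.

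Levels toward GM-MF were furthest apart for Il1a (43.2-fold, -5.43 ± 0.14, limma adjusted p = 1.15e-13), Slc7a2 (27.1-fold) and Inhba (26-fold). Toward GM-DC they were furthest apart for Apol7c (29.2-fold, 4.87 ± 0.17, limma adjusted p = 3.96e-12), Slamf1 (8.17-fold) and Pla1a (5.71-fold). In GM-DC, Slc7a2 read 5.68, 5.92 and 5.75 without LPS and 6.74, 7.23 and 6.77 with it. The untreated GM-MF arrays read 10.47, 10.77 and 10.34, those with LPS 11.74, 11.61 and 11.71. Here the gap between cell types was several times the LPS step. In GM-DC, Slamf1 read 6.48, 6.55 and 6.60 without LPS and 8.48, 8.39 and 7.61 with it. In GM-MF the values were 3.54, 3.41 and 3.37 without LPS and 5.23, 5.14 and 5.23 with it. Slamf1 had the reverse order, and untreated GM-DC lay above GM-MF with LPS. In 15 of 58 rises all untreated GM-MF arrays were above all GM-DC arrays with LPS, and in 4 all untreated GM-DC arrays were above all GM-MF arrays with LPS. How often this holds over all genes was not counted, so it is not read as particular to the shared genes. For 18 of 88 genes the lowest group mean was under the highest array median, 14 rises and 4 falls. No background call was made on the arrays, and there the change is a ratio of signals whose lower one was not shown to lie above background.

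**Figure D4:**
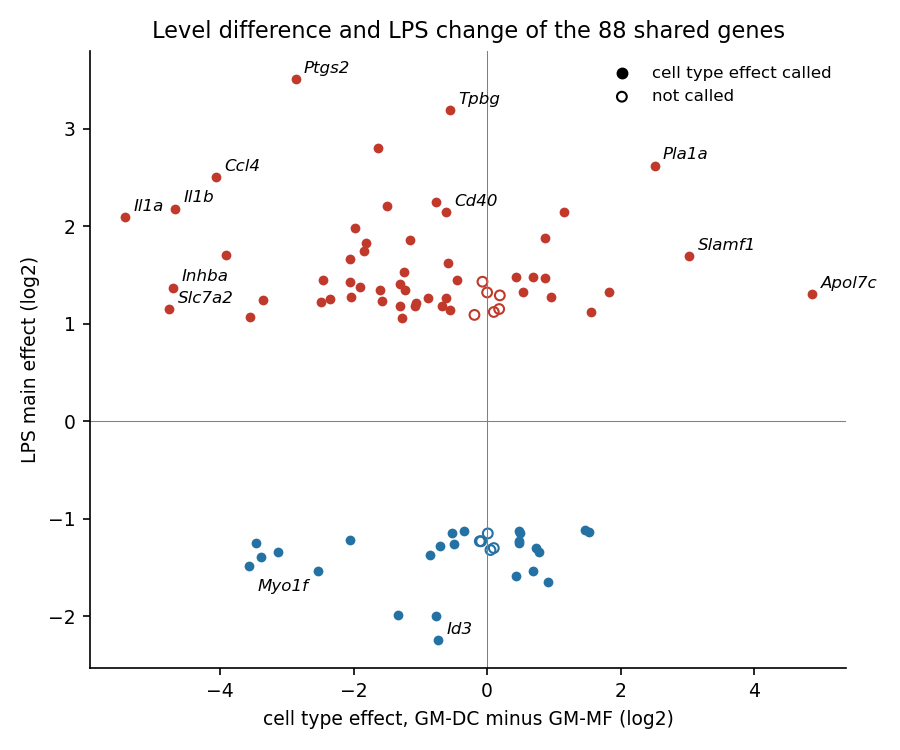
Cell type effect (horizontal axis, GM-DC minus GM-MF averaged over treatments, log2) against the LPS main effect (vertical axis, log2) for the 88 shared genes, rises in red and falls in blue. Filled points passed the cell type test (77) and open points did not (11). Rises spread further to the GM-MF side, with Il1a at -5.43 and Apol7c at the other end at 4.87.

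Promoter windows of the shared genes were searched for motifs of factors that LPS activates. RefSeq windows (assembly GRCm38.p6) from 250 bases before to 50 after a transcription start were found for 68 of 88 shared genes, 42 rises and 26 falls. The NF-kB pattern, spelled GGG, any 5 bases, CC and read on both strands, was in the windows of 27 of 42 rises (64.3%), 19 of 26 falls (73.1%) and 62.2% of all measured genes with a window. The interferon response pattern, spelled TTTC, any 2 bases, TTTC, was in 6 of 42 rises (14.3%), 1 of 26 falls (3.85%) and 3.89% of all. The AP-1 pattern TGANTCA was in 11.9% of the rises, 26.9% of the falls and 8.06% of all, and the STAT pattern TTCNNNGAA in 9.52%, 3.85% and 9.01%. The cAMP response pattern TGACGTCA was in 0 of 42 rises, 0 of 26 falls and 2.72% of all. Matches of 1 pattern may overlap, a match is not a shown binding site, and a missing match says only that these letters are not in the window. Stretches before the start are printed for the 3 shared genes of largest rise, with NF-kB pattern matches in capitals, each 5′ to 3′ along the gene.
Ptgs2: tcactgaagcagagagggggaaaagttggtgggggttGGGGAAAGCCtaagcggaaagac
Tpbg: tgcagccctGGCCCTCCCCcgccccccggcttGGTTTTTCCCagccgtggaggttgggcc
Cxcl1: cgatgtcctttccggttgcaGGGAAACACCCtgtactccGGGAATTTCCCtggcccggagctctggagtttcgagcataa
They lie at chr1:150099971-150100030, plus strand, at chr9:85842792-85842851, plus strand, and at chr5:90891135-90891214, plus strand. The Cxcl1 stretch holds 4 overlapping matches in 2 places, Tpbg holds 2 matches and Ptgs2 holds 1. All printed stretches were set by hand within 1 window per gene. That window was the one with the most matches of the NF-kB and interferon response patterns. Another Tpbg window held AP-1 pattern matches and no NF-kB pattern match. For 3 of the rises with an interferon response pattern the stretches are shown in the same way, with matches of both patterns in capitals.
Gbp5: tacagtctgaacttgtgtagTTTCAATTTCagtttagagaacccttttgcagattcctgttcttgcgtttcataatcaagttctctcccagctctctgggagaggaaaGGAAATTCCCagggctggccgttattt
Apol7c: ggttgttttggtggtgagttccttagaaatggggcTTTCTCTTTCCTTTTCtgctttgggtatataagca
Ifi214: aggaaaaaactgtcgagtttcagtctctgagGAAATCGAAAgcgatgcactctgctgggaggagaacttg
They lie at chr3:142496749-142496883, plus strand, at chr15:77533336-77533405, minus strand, and at chr1:173535998-173536067, minus strand. In Gbp5 an interferon response match stands upstream of an NF-kB match, while Apol7c has 2 overlapping interferon response matches.

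The shared genes were a small part of most gene lists, as they were of all genes (0.441%). The lists were chosen with earlier results of these data known, so these shares are not compared. Of 28 lists of response genes 15 held at least 1 shared gene, and 24 of 88 shared genes were in a list. Genes of MHC class I loading and the immunoproteasome rose by small steps: 7 of 14 rose, none fell and 7 did not pass, with Tap1, a peptide transporter (0.77 ± 0.10 in GM-DC and 0.64 ± 0.10 in GM-MF), and Tapbpl, a peptide editor, at 0.41 ± 0.09 for the main effect. Of 20 Toll-like receptors and adaptors 7 rose, 3 fell and 10 did not pass, with Tlr3, a receptor of double-stranded RNA (0.98 ± 0.23 in GM-DC and 0.91 ± 0.23 in GM-MF), and Myd88 (1.18 ± 0.13 in GM-DC and 0.44 ± 0.13 in GM-MF) among the rises. Of 19 unfolded protein response genes 4 rose, 7 fell and 8 did not pass. Its members Eif2ak3, the stress kinase PERK (-1.05 ± 0.15 in GM-DC and -0.92 ± 0.15 in GM-MF), and Herpud1, of protein degradation at the endoplasmic reticulum (-0.81 ± 0.13 in GM-DC and -1.16 ± 0.13 in GM-MF), fell by similar steps that missed 2-fold in 1 cell type. For MHC class II and its regulators 2 of 12 fell, Ciita (-0.47 ± 0.12) and Marchf8 (-0.38 ± 0.09), and 10 did not pass. In glycolysis and HIF 4 of 19 rose, 5 fell and 10 did not pass, and in the tricarboxylic acid cycle and fatty acid oxidation 1 of 20 rose, 8 fell and 11 did not pass. Among 29 growth factor receptors and kinases 8 rose, 10 fell and 11 did not pass, and among 36 myeloid transcription factors 9 rose, 10 fell and 17 did not pass. Beside the counts of these lists, 8.24% of all genes rose and 11.7% fell.

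**Figure D5:**
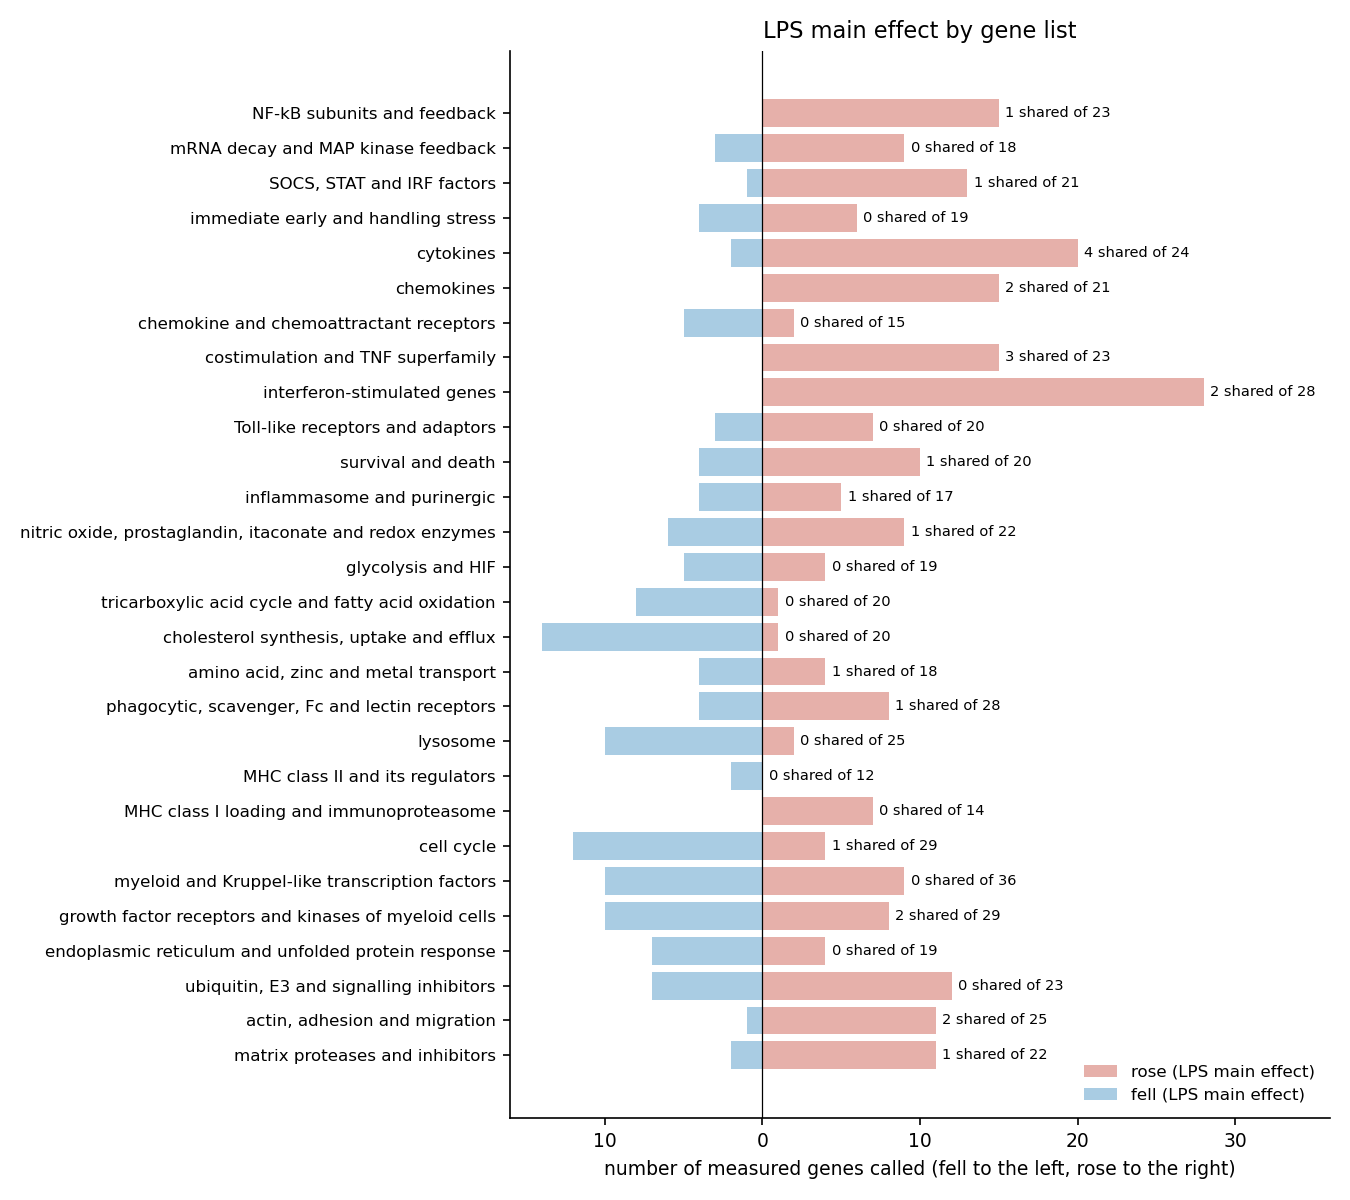
Number of measured genes called for the LPS main effect in each of 28 gene lists, rises to the right and falls to the left, with the number shared of those measured. Interferon-stimulated genes had 28 rises with 2 shared, cytokines 20 rises with 4 shared, and cholesterol genes 14 falls with none shared.

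Several of the best known LPS genes had a large main effect without a shared size. Il6, which encodes interleukin-6, changed by 1.98 ± 0.29 in GM-DC and 6.21 ± 0.29 in GM-MF, and Il12b, a subunit of interleukins 12 and 23, by 2.49 ± 0.24 in GM-DC and 5.27 ± 0.24 in GM-MF. Hamp, the iron hormone hepcidin, changed by 1.67 ± 0.25 in GM-DC and 5.72 ± 0.25 in GM-MF, and Ifi205, of the p200 family, by 4.64 ± 0.15 in GM-DC and 1.94 ± 0.15 in GM-MF. With gene models left out, these were the 4 largest main effects among genes that were not shared. Tnf changed by 2.81 ± 0.27 in GM-DC and 1.06 ± 0.27 in GM-MF, Socs3, an inhibitor of cytokine signalling, by 1.06 ± 0.16 in GM-DC and 2.94 ± 0.16 in GM-MF, and Tnfaip3, an inhibitor of NF-kB, by 0.69 ± 0.15 in GM-DC and 1.52 ± 0.15 in GM-MF. Sod2, the mitochondrial superoxide dismutase, rose by 1.32 ± 0.12 in GM-DC and 0.45 ± 0.12 in GM-MF. The chemokine Ccl5 rose in GM-MF (1.42 ± 0.12) and did not pass in GM-DC (0.15 ± 0.12), where it read 12.67 before LPS. Each of these 9 genes passed the test of the difference (limma interaction adjusted p from 1.72e-06 to 0.027).

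Most markers of further cell types that might be in the cultures did not pass for the main effect. The same held for most of all genes, of which 20.0% were called, so the cell content of the cultures is not read from these counts. None of 7 B cell, 9 T and NK cell and 5 eosinophil markers was called. Of 13 neutrophil and granule markers 2 rose, of 8 mast cell and basophil markers 1 fell, of 8 stromal markers 2 rose, of 4 erythroid markers 1 fell, and of 6 plasmacytoid DC markers 4 rose. Of 5 monocyte markers 1 rose, the shared gene Ms4a4c, and 1 fell. Of 14 dendritic cell markers 8 rose and none fell, with median changes of -0.01 (GM-DC) and 0.83 (GM-MF), and of 14 macrophage markers 4 rose and 1 fell. The summed log2 level of the 14 dendritic cell markers was 134.2 to 138.3 in untreated GM-DC, 135.8 to 138.0 in GM-DC with LPS, 74.7 to 80.2 in untreated GM-MF and 86.0 to 91.8 in GM-MF with LPS. That of the 6 plasmacytoid DC markers was 37.0 to 37.6 in untreated GM-DC, 38.3 to 39.1 in GM-DC with LPS, 36.7 to 37.3 in untreated GM-MF and 39.2 to 39.3 in GM-MF with LPS. The part of these markers in the shared changes was not tested. Of 19 immediate early and handling stress genes 6 rose, 4 fell and 9 did not pass, and none was shared.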

How the data were processed

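RNA of 12 samples of cultured marrow cells was measured on Affymetrix Mouse Gene 1.0 arrays. The deposited log2 values come from RMA, which the authors ran in R 3.0.2 according to the submitters' processing notes; the log base was read from their range (1.18 to 13.7), and the RMA settings are not given in the sources used here. Of 35556 probe sets 21789 name 1 gene in GEO's platform annotation, 1621 several and 12146 none. Only the first kind was used; 21698 matched RefSeq (GRCm38.p6). For 999 genes with several probe sets the one of highest mean was kept, which left 19938 genes.

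Group means were fitted with limma 3.58.1 in R 4.3.3 (4 groups, no block, no filter, 8 residual degrees of freedom), with contrasts for the LPS main effect, the cell type main effect, the interaction and each cell type, adjusted by Benjamini-Hochberg; the script was tested on simulated data. The number of arrays limits the precision.

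Members and lists were chosen with earlier results of these data known. Named by rule were the 12 largest shared rises and falls and up to 4 shared genes per list. Of a list with none, the 2 largest called members were named. Also named were 12 classic LPS genes and the 6 most equal shared genes among those of at least 4-fold main effect. The others were the 3 shared genes furthest apart by cell type in each direction, and 3 genes on each side of the similarity limit. The 4 largest main effects that were not shared were added. Other shared genes with a known role, and list members beyond the rule, were picked after their values were seen. Same-numbered LPS and untreated arrays of a cell type deviated together (r of 0.119 to 0.363 in GM-DC and 0.104 to 0.257 in GM-MF), and by the rule that every pair exceeds 0.1 the numbers were taken to pair arrays within a cell type, from these data and not the labels. In GM-DC, numbers 1 and 2 were not told apart: untreated replicate 2 with LPS replicate 1 had r of 0.164 and untreated 1 with LPS 2 had 0.12. Across cell types same-numbered arrays had r of -0.168 to 0.233. Alternatives changed the scaling, filter, probe choice, model, block, limits and arrays.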

Additional observations from a re-analysis of the deposited data

Results flagged for a closer look

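For 27 named genes the LPS change differed between the cell types by the limma interaction test, given here as the GM-DC change minus the GM-MF change on the log2 scale (n = 3 arrays per group). Of these 27 genes 3 were shared ones: Il15ra at -0.85, Stat5a at -0.86 and Slc43a2 at 0.86. The shared gene Calcrl, which the naming rule did not pick, also passed, at 0.78. The 27 genes are those of the fit without a block, though replicate numbers were taken to pair arrays within a cell type. With the replicate number as a block within each cell type, Tnfsf15 missed the threshold (limma interaction adjusted p = 0.0542). Batf, Slc16a3 and Cpt1a then passed (limma interaction adjusted p = 0.00385, 0.0344 and 0.0311). So did the named shared genes Ccnd2, Itgav, Lpar6 and Timp1.

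The change was more positive in GM-MF for cytokine genes and related signals: Il6 at -4.23, Il12b at -2.78, Ccl5 at -1.27 and Tnfsf15 at -1.03. It was also more positive there for the hormone gene Hamp at -4.05, the chemokine receptor Ccr7 at -2.52 and the oxysterol enzyme Ch25h at -2.17. Regulators in the same direction were the nuclear receptor Nr4a3 at -2.65, Socs3 at -1.88, the ubiquitin ligase Peli1 at -1.30 and Tnfaip3 at -0.83, together with Serpinb9 at -1.01. Atp6v0d2, a subunit of the proton pump of lysosomes, fell further in GM-DC, at -1.49.

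The rise was larger in GM-DC for Ifi205 at 2.71, the immediate early factor Egr1 at 2.35, Tnf at 1.74, the glucose transporter Slc2a6 at 0.98, Sod2 at 0.87 and Myd88 at 0.74. Genes that fell further in GM-MF were the chemokine receptor Cxcr4 at 1.68, the mRNA decay factor Zfp36l1 at 1.62, the lipid phosphatase Inpp5d at 1.40, the cholesterol synthesis enzyme Sqle at 1.26 and the dehydrogenase Idh1 at 0.68. Groups of 3 arrays were too small for the check of single samples that stand apart.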

How the results depend on the processing

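The fold limit decided the number of shared genes: at 1.5-fold in place of 2-fold in each cell type there were 387, 213 that rose and 174 that fell, and 333 of them differed in level between the cell types. With the replicate block, by number alone (4135 genes called) or by number within cell type (4428, chosen after seeing the data), the same 88 genes were shared, and no main effect call on a gene named by the rule changed. The interaction was called for 5 and 10 of the 88 in these fits, against 4 without a block. The additive model called 3063 genes, and there Ccr7 (1.21, adjusted p = 0.0506) and Nr4a3 (1.25, adjusted p = 0.0613) missed the threshold. Other scalings, filters, probe choices and limma options gave 87 to 89 shared genes, of which cyclic loess kept 78 of 88, with 67 rises and 22 falls. Stricter similarity limits gave 67 to 78. Leaving out 1 array gave 76 to 105 shared genes (47 to 78 rises, 24 to 35 falls) and 3347 to 3938 called genes. No named gene reversed under any alternative, and of 1638 named gene values 1636 kept their direction and side of the threshold. Signals near the array medians limit what the changes of low genes show.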

Other observations

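Further gene lists are given for the LPS main effect (limma), where 8.24% of all genes rose and 11.7% fell. Of 23 measured genes of ubiquitin ligases and signalling inhibitors 12 rose, 7 fell and 4 did not pass, and of 20 survival and death genes 10 rose, 4 fell and 6 did not pass. Of 25 actin, adhesion and migration genes 11 rose, 1 fell and 13 did not pass, with the shared genes Itgav and Rnd3 among the rises. Of 22 matrix protease and inhibitor genes 11 rose, 2 fell and 9 did not pass. Of 18 mRNA decay and MAP kinase feedback genes 9 rose, 3 fell and 6 did not pass. Of 15 chemokine and chemoattractant receptors 2 rose, 5 fell and 8 did not pass, and of 18 amino acid, zinc and metal transport genes 4 rose, 4 fell and 10 did not pass.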
